A study of Homo sapiens with 3 samples.

Results

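The genes described here were 8 chemokine genes, CXCL1, CXCL2, CXCL3, CXCL5, CXCL6, CXCL8, CXCL16 and CCL20, measured by RNA-Seq in DLD1 cells, a human colorectal cancer cell line. They were selected from a table of 60504 genes as a set of related genes with their levels in these same libraries already known, so their differences are given as a description, with no test. Of the 8 genes, 7 reached the minimum level required here, as did 11675 genes in all. This filter averaged the clones first, averaged the result with the control, and kept genes whose value was 1 FPKM or more. FPKM is the number of sequenced fragments scaled to the length of the transcript and to the depth of the library. There were 3 libraries: 1 of DLD1 control cells, which are wild type for BEX2, and 2 of BEX2-/- DLD1 cells, named clone 1 and clone 2 here. The labels title these DLD1 KO1 and DLD1 KO2, and that they are separate clones is assumed. Knockout cells were made with CRISPR/Cas9 and screened by sequencing. The authors report a frameshift deletion where translation of BEX2 begins, but the allele of each clone is not given in the sources used here. No treatment is given for any of the 3 libraries. A difference between control and knockout cells therefore rested on 1 control library, and clonal differences and the effect of the knockout cannot be told apart.

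Chemokines are small secreted proteins that direct the migration of leukocytes along a gradient. CXCL1, CXCL2, CXCL3, CXCL5, CXCL6 and CXCL8 carry the amino acids Glu-Leu-Arg ahead of their CXC motif and attract neutrophils through the receptors CXCR1 and CXCR2, and their genes lie together on chromosome 4. CCL20 attracts CCR6-positive lymphocytes and dendritic cells to mucosal surfaces, and CXCL16 is made as a membrane-bound protein whose shed form attracts CXCR6-positive T cells. Epithelial cells are known to transcribe most of these genes when interleukin-1, TNF or bacterial products activate the transcription factor NF-kappaB, and their mRNAs are short-lived.

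The depth recovered from the steps in the low values was 47458848 reads for DLD1 control cells, with 35593992 for clone 1 and 47722381 for clone 2. BEX2 (ENSG00000133134) was listed at 0 FPKM in all 3 libraries, where 3 reads would give 0.0538, 0.0717 and 0.0535 FPKM, so its mRNA level could not be used to check the genotype labels. The authors describe BEX2 protein as relatively high in DLD1 among colorectal cancer lines. Why the control library had no BEX2 read was not tested. The labels carry the same date and lane for the 3 libraries. None of 8 housekeeping genes was listed at 0. All 8 epithelial markers passed the filter, among them EPCAM at 265, 282 and 220 FPKM in control cells, clone 1 and clone 2. VIL1, a microvillus protein, was the only one of them changed at least 2-fold, at 3.61, 13.2 and 0.221 FPKM, and its part in the results was not tested. None of the 12 leukocyte and neutrophil markers passed it. They summed to 1.01, 0.894 and 1.23 FPKM, and PTPRC, LYZ, FCGR3B and CSF3R were at 0 in every library. CD14 made up most of each sum, at 0.793, 0.760 and 0.700 FPKM in control cells, clone 1 and clone 2. ITGAM, at 0.0260, 0.00992 and 0.311 FPKM, was lowest in clone 1 and highest in clone 2, and its part in the results was not tested. The 5 fibroblast markers summed to 0.136, 0.634 and 0.129 FPKM, and the 3 endothelial markers to at most 0.0784 FPKM.

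Of the 8 genes, 7 had a promoter in the RefSeq table (GRCh38.p14). The longest stretch that the 250 bases before the start of all 6 neutrophil chemokine genes shared on the strand of the gene was GGAATTTCC, 9 bases long. The 30 bases around it are shown because these promoters belong to the genes that differed together, and because CXCL6, which holds the stretch as well, had no read. Capitals mark matches to the kappaB consensus, the general binding motif of NF-kappaB. For CXCL8, which has no full match, they mark the shared 9 bases.
CXCL1: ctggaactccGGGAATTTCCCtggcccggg
CXCL2: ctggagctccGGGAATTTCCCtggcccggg
CXCL3: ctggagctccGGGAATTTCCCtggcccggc
CXCL5: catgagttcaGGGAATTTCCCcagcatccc
CXCL6: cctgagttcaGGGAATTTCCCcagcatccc
CXCL8: tgcaaatcgtGGAATTTCCtctgacataat
CCL20: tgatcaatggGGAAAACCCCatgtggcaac
The windows lie on chromosome 4 at chr4:73869304-73869333 (CXCL1, plus strand), chr4:74099254-74099283 (CXCL2, minus), chr4:74038749-74038778 (CXCL3, minus), chr4:73998749-73998778 (CXCL5, minus), chr4:73836578-73836607 (CXCL6, plus) and chr4:73740468-73740497 (CXCL8, plus), and for CCL20 at chr2:227813753-227813782 (plus). In CXCL1, CXCL2 and CXCL3 the shared stretch began 78, 77 and 78 bases before the start, and in CXCL5, CXCL6 and CXCL8 it began 90, 89 and 91 bases before it. The CCL20 window did not hold the stretch. The start is that of the RefSeq table. By the gene spans given below, which come from another annotation, the windows of CXCL2, CXCL3, CXCL5, CXCL6 and CCL20 lie inside the gene.

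The same stretch, on either strand from 250 bases before to 50 bases after the start, was found in 162 of all 35116 promoters of the table (0.461%). It was picked because the 6 neutrophil chemokine promoters share it, and several of these are near-copies of each other, as given below. Nothing is therefore read from this share. The kappaB consensus, searched on both strands from 250 bases before to 50 bases after the start, was found in 6 of the 7 promoters and in 5.91% of all promoters. Among 25 other chemokine promoters it was found in 3, those of CXCL10, CXCL11 and CCL22. In CXCL1, CXCL2, CXCL3, CXCL5 and CXCL6 the match holds the picked stretch, and these promoters include near-copies. Nothing is therefore read from the shares of the consensus either. Matches to the other motifs were few. The AP-1 motif TGANTCA was in 1 of the 7 promoters (CXCL8) and 7.71% of all, the C/EBP motif TTGCNNAA in 1 (CXCL2) and 10.5%, and the TATA motif TATAAA in 2 (CXCL8 and CCL20) and 11.5%. A match is a run of letters and not a measured binding site. The whole stretch of 250 bases before the start of CXCL1 (chr4:73869143-73869392, plus strand) is shown for context, with the kappaB match in capitals.
CXCL1: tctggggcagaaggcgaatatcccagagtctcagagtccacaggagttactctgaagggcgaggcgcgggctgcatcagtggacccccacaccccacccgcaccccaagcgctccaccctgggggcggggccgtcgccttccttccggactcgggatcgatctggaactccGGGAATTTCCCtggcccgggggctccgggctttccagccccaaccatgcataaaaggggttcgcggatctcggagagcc
Across these 250 bases, CXCL1, CXCL2 and CXCL3 were 83.3% to 86.8% identical to each other, and CXCL5 and CXCL6 were 85.9% identical. CXCL8 was 53.2% to 59.4% identical to the other 6.

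All 6 genes that differed did so in the same order, lowest in clone 1, intermediate in DLD1 control cells and highest in clone 2. CXCL1 (ENSG00000163739, chromosome 4, 73869393 to 73871242 on GRCh38, plus strand), a neutrophil attractant also called GRO-alpha, was at 13.8 FPKM in control cells, against 0.585 in clone 1 and 67.3 in clone 2, from 848, 27 and 4164 reads. Exact 95% Poisson intervals of these values were 12.9 to 14.7, 0.386 to 0.852 and 65.3 to 69.4 FPKM. They did not overlap, and here as below they cover counting error only. The FPKM was 23.6-fold lower in clone 1 than in control cells (95% counting interval 16.1 to 36.0), 4.88-fold higher in clone 2 than in control cells (4.53 to 5.26) and 115-fold higher in clone 2 than in clone 1 (78.9 to 175). The differences in log2(FPKM + 1) were -3.22 for clone 1 minus control and 2.21 for clone 2 minus control. In such bulk libraries, fewer cells with the mRNA and less mRNA per cell cannot be told apart.

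CXCL2 (ENSG00000081041, chromosome 4, 74097035 to 74099293, minus strand) and CXCL3 (ENSG00000163734, chromosome 4, 74036589 to 74038807, minus strand) encode the close relatives GRO-beta and GRO-gamma. CXCL2 was at 9.40 FPKM in the control library, at 0.524 in clone 1 and at 35.9 in clone 2 (669, 28 and 2571 reads). Its FPKM was 17.9-fold lower in clone 1 (12.3 to 27.2) and 3.82-fold higher in clone 2 (3.51 to 4.17) than in control cells. CXCL3 was at 12.3, 1.41 and 40.1 FPKM (1295, 111 and 4246 reads). The 3 GRO genes thus took the same order over the libraries, with CXCL3 the least reduced in clone 1. Its FPKM was 8.75-fold lower there (7.20 to 10.7) and 3.26-fold higher in clone 2 (3.06 to 3.47). Reads can be shared between these genes. Their coding sequences were 90.7% to 94.4% identical, with identical runs of up to 97 bases between CXCL2 and CXCL3, so the split of reads among the 3 is uncertain.

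CXCL5 (ENSG00000163735, chromosome 4, 73995642 to 73998779, minus strand), which encodes the epithelial neutrophil attractant ENA-78, was by far the most abundant of the 8 genes in every library. Its level was 165 FPKM in control cells, against 40.7 in clone 1 and 869 in clone 2, from 19897, 3681 and 105293 reads. Among all genes of the table, it ranked 180 in the control library, 853 in that of clone 1 and 29 in that of clone 2. Its FPKM was 4.05-fold lower in clone 1 (3.91 to 4.20) and 5.26-fold higher in clone 2 (5.18 to 5.34) than in control cells. CXCL6 (ENSG00000124875, chromosome 4, 73836497 to 73849064, plus strand), which encodes GCP-2, is its closest relative, with a coding sequence 87.5% identical to that of CXCL5. CXCL6 had 0 reads in each library, and 3 reads would be 0.0290, 0.0386 and 0.0288 FPKM in control cells and the clones. At this depth CXCL6 was thus not detectable in any library.

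CXCL8 (ENSG00000169429, chromosome 4, 73740506 to 73743716, plus strand) encodes interleukin-8, the best known human neutrophil attractant. It was at 5.62 FPKM in control cells, at 0.148 in clone 1 and at 67.5 in clone 2 (607, 12 and 7324 reads). Its FPKM was 37.9-fold lower in clone 1 (21.6 to 73.8) and 12.0-fold higher in clone 2 (11.0 to 13.1) than in control cells. Between the clones, CXCL8 differed 455-fold (260 to 881), against 21.3-fold (20.6 to 22.1) for CXCL5, and these counting intervals did not overlap. CXCL8 thus spanned a wider range than CXCL5, although both kept the same order.

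CCL20 (ENSG00000115009, chromosome 2, 227805739 to 227817564, plus strand) lies on another chromosome and showed the same order. Its level was 8.27 FPKM in control cells, against 0.0418 in clone 1 and 68.0 in clone 2. The annotated exon length gave no whole reads for CCL20, and the smallest whole numbers in proportion were 527, 2 and 4360 reads. These numbers correspond to a length of 1343 bases, against 1594 annotated. Multiples of them would narrow the intervals but would need a length above the annotated one. With these smallest reads its FPKM was 198-fold lower in clone 1 (54.4 to 1636) and 8.23-fold higher in clone 2 (7.51 to 9.02) than in control cells. With 2 reads in clone 1, the fold between clones was poorly bounded, at 1626-fold with a counting interval of 450 to 13430.4 that overlapped that of CXCL8.

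CXCL16 (ENSG00000161921, chromosome 17, 4733526 to 4739922, minus strand) stood apart from the other genes. It was at 19.6 FPKM in control cells, at 18.7 in clone 1 and at 29.6 in clone 2 (2593, 1864 and 3947 reads). The ratio of clone 1 to control was 0.958, with an interval of 0.903 to 1.02 that includes equal levels. CXCL16 was 1.51-fold higher in clone 2 than in control cells (1.44 to 1.59), which is more than counting error but under the 2-fold threshold used here.

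**Figure D1:**
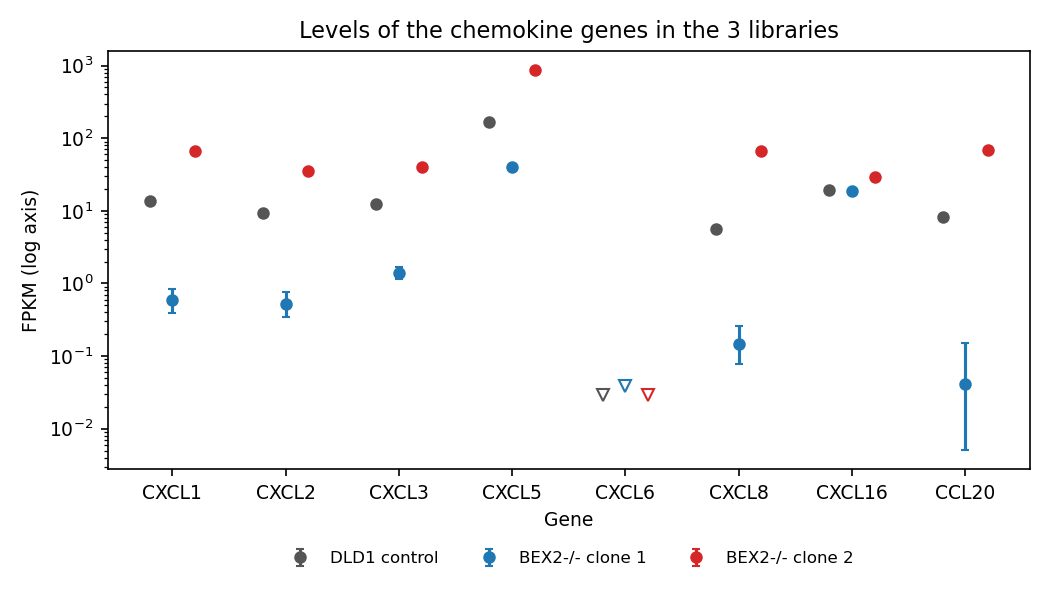
Level of each chemokine gene in FPKM (log axis) in DLD1 control cells (grey), BEX2-/- clone 1 (blue) and BEX2-/- clone 2 (red), 1 library each. Points are the values, bars the exact 95% Poisson intervals of the reads (smaller than the point where not seen), and open triangles the level of 3 reads for CXCL6, which had 0 reads. In CXCL1, CXCL2, CXCL3, CXCL5, CXCL8 and CCL20 the blue point is lowest and the red point highest. The points of CXCL16 lie close together, from 18.7 to 29.6 FPKM.

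Within each library the order of the levels changed in part. In control cells it was CXCL5, CXCL16, CXCL1, CXCL3, CXCL2, CCL20 and CXCL8 from high to low. The counting intervals of CXCL1 and CXCL3 overlapped, as did those of CXCL2 and CCL20. In clone 1 the order was CXCL5, CXCL16, CXCL3, CXCL1, CXCL2, CXCL8 and CCL20, with overlap between CXCL1 and CXCL2 and between CXCL8 and CCL20. In clone 2 CXCL16 came last. There CXCL5 was followed by CCL20, CXCL8 and CXCL1 at 67.3 to 68.0 FPKM with overlapping intervals, and then by CXCL3 and CXCL2. The 6 neutrophil chemokines summed to 206 FPKM in control cells, against 43.4 in clone 1 and 1080.2 in clone 2. CXCL5 made up 80.1%, 93.9% and 80.5% of that sum, and CXCL8 2.73%, 0.342% and 6.25%. The sum was thus made largely of CXCL5 mRNA in every library, and the share of CXCL8 was lowest in clone 1 and highest in clone 2.

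A gene was counted as changed when log2(FPKM + 1) differed by at least 2-fold. In clone 1 against control cells, 6 of the 8 genes were lower by this rule, CXCL1, CXCL2, CXCL3, CXCL5, CXCL8 and CCL20, beside 0.959% of all genes past the filter. In clone 2 against control cells the same 6 genes were higher, beside 1.33% of all genes. In clone 2 against clone 1 they were higher as well, beside 2.51% of all genes. A gene that met both of the first conditions, lower in the one clone and higher in the other, was found in 23 of 11675 cases (0.197%), among them these 6 genes. Since the genes were chosen on these contrasts, nothing is read from the counts. The clone comparisons share the control library. The median difference of the 7 genes past the filter was -2.53 for clone 1 minus control, 2.21 for clone 2 minus control and 4.60 for clone 2 minus clone 1 in log2(FPKM + 1), beside 0.04, -0.01 and -0.05 for all genes. The members nearest to the threshold of 1 in clone 2 against control were CXCL3 above it (1.63) and CXCL16 below it (0.57).

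For the 7 genes, the clones lay on opposite sides of the control value. When both clones were averaged, 0 members passed the threshold in log2(FPKM + 1), against 3 (CXCL1, CXCL2 and CCL20, all lower) with a pseudocount of 0.1 FPKM or with none. CXCL1 was at 34.0 ± 47.2 FPKM (SD, n = 2 clones) in BEX2-/- DLD1 cells, and the mean log2 difference from control was -0.51 with an SD of 3.84 between the clones. CXCL8 was at 33.8 ± 47.6 FPKM, with a mean log2 difference of 0.42 and an SD of 4.17, and this difference turned to -0.48 with a pseudocount of 0.1 FPKM and to -0.83 with none. For CXCL16, at 24.2 ± 7.68 FPKM, the mean log2 difference was 0.26 with an SD of 0.45. For all 7 genes the difference of the mean from control in log2(FPKM + 1) was smaller than the spread between the clones.

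**Figure D2:**
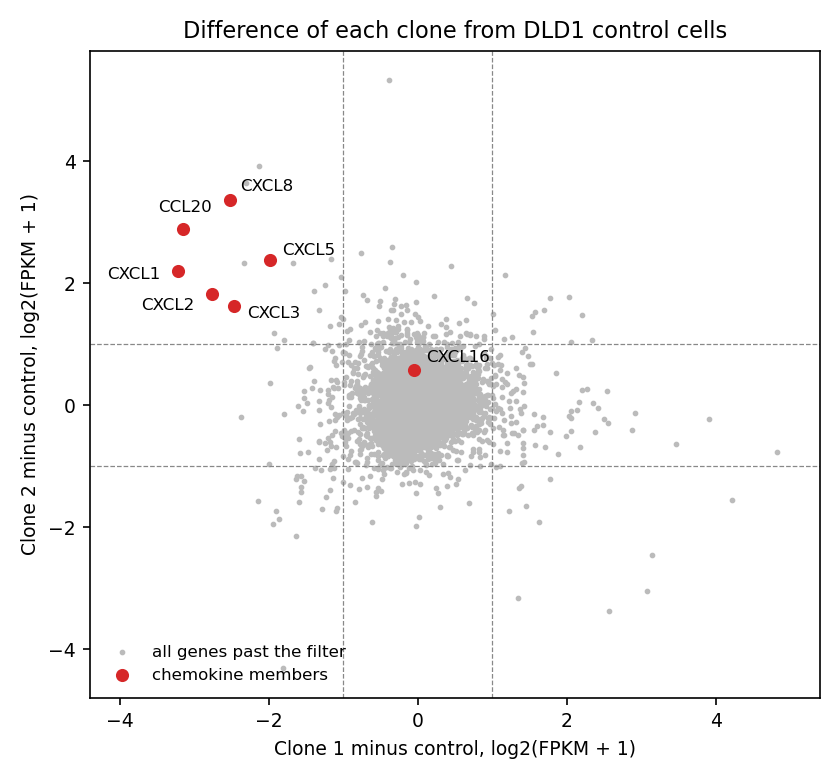
Difference of clone 1 from control (horizontal axis) against difference of clone 2 from control (vertical axis) in log2(FPKM + 1). Grey points are the genes past the filter, red points the chemokine genes, and dashed lines mark 2-fold. Both axes share the control library. CXCL1, CXCL2, CXCL3, CXCL5, CXCL8 and CCL20 lie at the upper left, below control in clone 1 and above it in clone 2, and CXCL16 lies near the centre.

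The neutrophil chemokine genes lie within 357 kb of each other on chromosome 4, from CXCL8 to CXCL2, and the genes between and beside them did not all share the pattern. PF4, the platelet chemokine CXCL4, lies 241 kb from CXCL8, between CXCL1 at 129 kb and CXCL5 at 255 kb. It was at 6.84, 7.07 and 7.15 FPKM in control cells, clone 1 and clone 2. MTHFD2L, a mitochondrial folate enzyme next to CXCL2, was at 1.36, 1.13 and 1.68 FPKM. Neither PF4 nor MTHFD2L differed by 2-fold between any pair of libraries, although MTHFD2L was lowest in clone 1 and highest in clone 2. RASSF6, beyond CXCL8, was below the filter and had the opposite order, at 0.543, 1.46 and 0.417 FPKM. PF4V1 and PPBP, which also lie among the members, were under 1 FPKM in every library. Further along, the EGF receptor ligands EREG and AREG were at 62.3, 41.0 and 110 FPKM and at 97.0, 73.4 and 259 FPKM. Both were thus lowest in clone 1 and highest in clone 2, with differences between the clones of 1.39 and 1.80 in log2(FPKM + 1), smaller than those of the 5 detected neutrophil chemokines, which were 4.09 to 5.90. Of 8 non-chemokine genes of the region that passed the filter, EREG and AREG alone were changed, both between the clones and AREG against control as well.

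**Figure D3:**
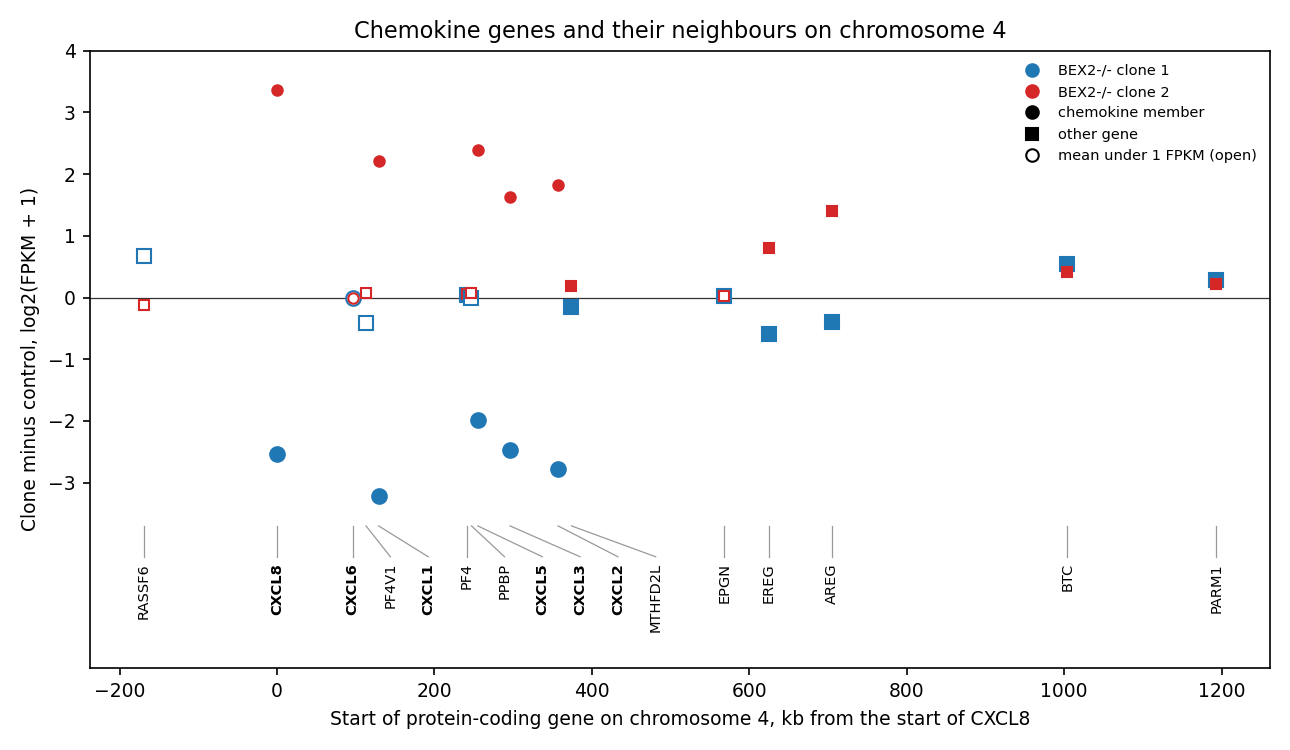
Difference of each clone from control in log2(FPKM + 1) for protein-coding genes along chromosome 4, by the distance of the lower gene coordinate from that of CXCL8 in kb. Circles are the chemokine members, squares other genes, blue clone 1, red clone 2, and open symbols genes with a mean under 1 FPKM. CXCL8, CXCL1, CXCL5, CXCL3 and CXCL2 lie below 0 in clone 1 and above 0 in clone 2, while PF4 and MTHFD2L between and beside them lie near 0.

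The receptors of these chemokines were at low levels. CXCR2, the main receptor of the neutrophil chemokines, was at 0.307 FPKM in control cells, at 0.0435 in clone 1 and at 1.23 in clone 2 (47, 5 and 190 reads), below the filter but in the same order as its ligands. Its FPKM was 7.05-fold lower in clone 1 (2.82 to 22.7) and 4.02-fold higher in clone 2 (2.91 to 5.66) than in control cells. CXCR1 had at most 6 reads, and CCR6, the CCL20 receptor, and ACKR1, a scavenging receptor, had none. CXCR6, the receptor of CXCL16 and the only one of the 5 past the filter, was at 1.07, 1.05 and 1.74 FPKM and was not changed 2-fold.

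Few other chemokines were detected. Of 10 other CXC chemokines only PF4 passed the filter, and 9 were under 1 FPKM in every library, among them the interferon-induced T cell attractants CXCL9, CXCL10 and CXCL11. Of 26 chemokines of other classes, 3 passed. CCL26, an eosinophil attractant, was at 3.46, 0.796 and 4.30 FPKM, and CX3CL1, a membrane-bound chemokine, was at 1.14, 0.0235 and 3.24 FPKM. Both were at least 2-fold lower in clone 1 than in control cells and in clone 2, and neither passed the threshold in clone 2 against control. CX3CL1 missed it in log2(FPKM + 1), although its FPKM was 2.84-fold higher there (924 reads against 323 reads in control cells). CX3CL1 passed the filter only through clone 2. CCL28, a mucosal chemokine, was at 1.25, 1.60 and 1.48 FPKM.

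Among the genes of the pathway that is known to induce these chemokines, the subunits and inhibitors of NF-kappaB included changed genes in each comparison. Of 12 such genes past the filter, 5 were lower in clone 1 (0.959% of all genes), 7 were higher in clone 2 (1.33%) and 8 were higher in clone 2 than in clone 1 (2.51%). Their medians were -0.60, 1.16 and 1.76 in log2(FPKM + 1). The list was written with earlier results of these data known, so nothing is read from these counts. RELB, a subunit of the non-canonical pathway, was at 9.03, 1.63 and 21.8 FPKM in control cells, clone 1 and clone 2, and NFKB2, its partner, at 18.5, 8.39 and 48.4 FPKM. TNFAIP3, a feedback inhibitor also called A20, was at 3.35, 0.656 and 15.0 FPKM, and NFKBIA, the inhibitor that holds NF-kappaB in the cytoplasm, at 43.4, 15.1 and 66.7 FPKM. NFKBIE was at 11.4, 5.05 and 32.9 FPKM, and BIRC3 at 1.99, 0.751 and 6.42 FPKM. NFKBIZ was at 4.68, 4.34 and 13.7 FPKM, and TNIP1 at 19.7, 16.2 and 44.1 FPKM. By the 2-fold rule BIRC3, NFKBIZ and TNIP1 were not lower in clone 1, and NFKBIA was not higher in clone 2 than in control cells. The widest differences between the clones were those of TNFAIP3 and RELB, at 3.27 and 3.12 in log2(FPKM + 1). RELA, the main activating subunit, was at 14.4, 13.4 and 18.2 FPKM and was not changed, nor was NFKB1, at 11.0, 9.13 and 17.0 FPKM.

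The cytokines that act upstream of these genes were mostly scarce, with 10 of 15 under 1 FPKM in every library. IL18, the most abundant of them, was at 15.9, 18.9 and 22.3 FPKM in control cells, clone 1 and clone 2 and was not changed 2-fold. IL1B had no read in any library, and TNF was at 0.138, 0 and 0.838 FPKM (11, 0 and 67 reads). LTB, the lymphotoxin that signals through LTBR, was at 0.755, 0.0366 and 8.94 FPKM, from 55, 2 and 655 reads, and it passed the filter only through clone 2. IL17C, an epithelial interleukin-17, was at 2.09, 0.448 and 3.89 FPKM. IL33, an alarmin of the interleukin-1 family, went the other way and was highest in clone 1, at 2.71, 9.02 and 3.79 FPKM. Of the 15 receptors and adaptors of such cytokines past the filter, the decoy receptor IL1R2 alone was changed, at 4.09, 10.3 and 2.65 FPKM. It was thus higher in clone 1 than in the other libraries, and LTBR, TNFRSF1A and IL17RA were not changed.

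Among 8 regulators of chemokine mRNA decay, ZC3H12A, the endonuclease Regnase-1 that cuts inflammatory mRNAs, was at 10.5, 6.17 and 36.8 FPKM, and ZFP36L1 at 34.8, 35.0 and 71.3 FPKM. Both were higher in clone 2 by the 2-fold rule, and the other 6 regulators were not changed. Of 6 further transcription factors only EGR1, an immediate early factor, was changed, at 5.10 FPKM in clone 1 and 17.4 FPKM in clone 2.

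Other secreted factors that act on myeloid cells were also measured. Of 6 past the filter, 6 were higher in clone 2 than in control cells (1.33% of all genes) and 2, CSF2 and LCN2, were lower in clone 1 (0.959% of all genes). SAA1 and CSF2 are counted among the 6 but passed the filter only through their levels in clone 2. This list too was written with earlier results of these data known, so nothing is read from the counts. CSF2, the growth factor GM-CSF, was at 1.69, 0.0714 and 6.95 FPKM (63, 2 and 261 reads), and CSF1, its macrophage counterpart, at 2.47, 0.757 and 11.7 FPKM. CSF1 was 3.26-fold lower in clone 1 by FPKM (2.72 to 3.93), but its difference of -0.98 in log2(FPKM + 1) missed the threshold. LCN2, an iron-binding defence protein of neutrophils and epithelia, was at 8.45, 1.16 and 142 FPKM. SAA1, an acute-phase protein, was at 0.303, 0 and 51.4 FPKM (11, 0 and 1875 reads). For LIF and IL23A, the differences of clone 2 from control were 1.49 and 1.09 in log2(FPKM + 1). Their differences of clone 1 from control were -0.23 and -0.32, short of the threshold. IL6 and CSF3, which encodes the neutrophil growth factor G-CSF, had at most 2 reads in any library.

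Of the genes that process or present chemokines, SDC4, a heparan sulfate proteoglycan, was at 50.1, 15.0 and 255 FPKM, in the same order as the chemokines. DPP4, a protease that trims chemokines, was at 1.15, 6.34 and 0.581 FPKM, in the opposite order. It passed the filter only through clone 1. ADAM10, which sheds CXCL16 from the membrane, was at 5.53, 6.19 and 6.09 FPKM, and SDC1 at 35.4, 37.3 and 27.6 FPKM.

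**Figure D4:**
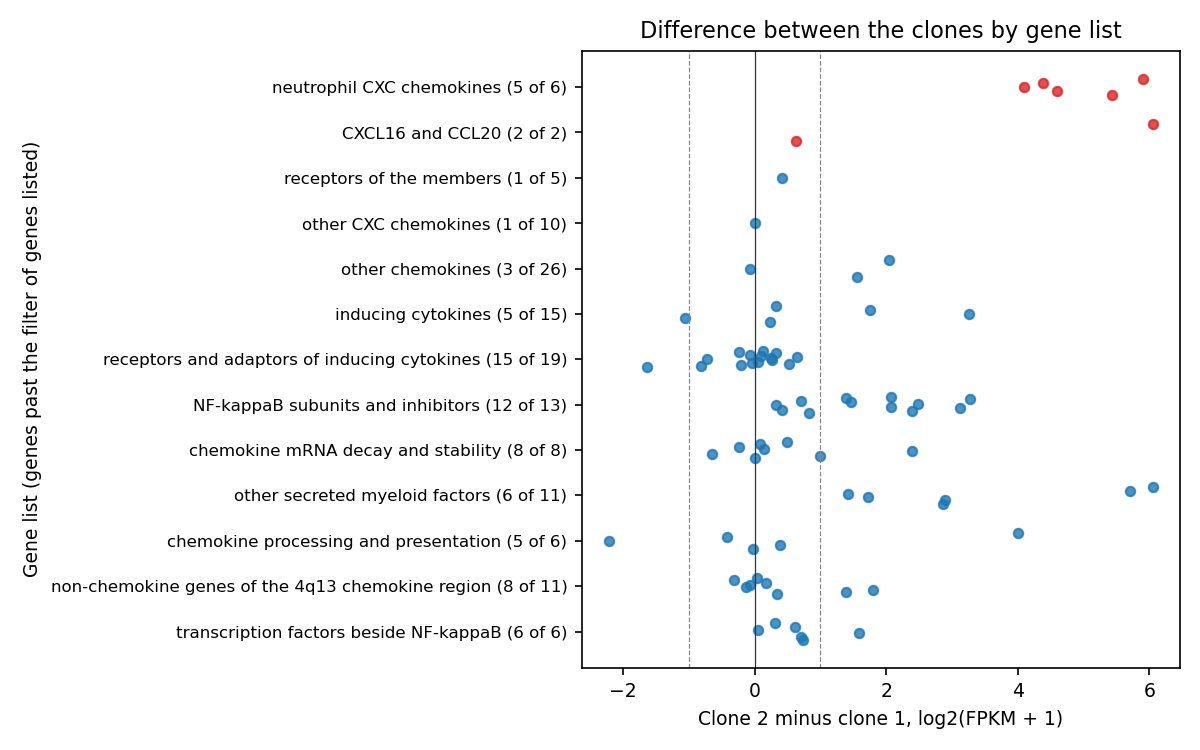
Difference of clone 2 minus clone 1 in log2(FPKM + 1) for each gene past the filter, by gene list. Red points are the chemokine members, blue points genes of the other lists, and dashed lines mark 2-fold. The neutrophil chemokines lie between 4.09 and 5.90, NF-kappaB genes lie to the right of 0, and receptors and adaptors lie mostly near 0.

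The genes nearest to the median pair of differences of the chemokines (clone 1 minus control and clone 2 minus control, by Euclidean distance over the 3 libraries) were OLR1, SDC4, TNFAIP3, RELB, PRR9, TGFBI, CSF2, KRTAP2-3, SH3BGRL and KRTAP3-1. OLR1, a scavenger receptor for oxidized LDL, was closest, at a distance of 0.23, with 41.8, 7.47 and 214 FPKM in control cells, clone 1 and clone 2. SDC4 followed at 0.86, and the last of the 10, KRTAP3-1, a keratin-associated protein, lay at 1.45 with 4.33, 0.0775 and 65.5 FPKM.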

How the data were processed

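RNA-Seq libraries of DLD1 control cells (1) and of BEX2-/- DLD1 clones (2) were prepared by the authors with a TruSeq kit from total RNA. The authors deposited 1 table of FPKM values per gene, normalized by them for length and depth. The submitters' processing notes name Trim Galore 0.3.7, STAR 2.5, Cufflinks 2.2.1 and DESeq 1.22.1 and the build hg19. The annotation is not given in the sources used here. Symbols and positions came from GENCODE release 29 (GRCh38), which held 56996 of 60504 identifiers. Members and gene lists were chosen with earlier results of these data known. Genes named from a list were those changed at least 2-fold between any pair of libraries or, where none was, the most abundant, and the 10 nearest genes were named as well. Other genes were named after their values were seen. Since 1 control library gives no spread, no test was run. Differences used log2(FPKM + 1). Reads were recovered from FPKM, exon length and depth, and among low values were whole within 0.02 read for 98.6% to 98.7% where a gene has a single transcript and for 87.8% to 88.1% otherwise. Exact Poisson intervals and conditional binomial intervals of folds cover counting error only. Motifs and identities were computed from RefSeq promoters and GENCODE coding sequences, without protein sequences. The method was tested on simulated data. The alternatives were a pseudocount of 0.1 FPKM, none, other scalings, other filters, a 1.5-fold threshold and omission of each clone. Python 3.11.15, numpy 2.4.6, pandas 2.3.3, scipy 1.17.1, Biopython 1.88 and matplotlib 3.10.9 were used.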

Additional observations from a re-analysis of the deposited data

How the results depend on the processing

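Of 52 alternative values of member counts and medians, 42 were close to the reported ones (counts within 1.5 times, medians within counting error of the middle gene) and no median had the opposite sign. The mean difference of CXCL8 over the clones did turn, from 0.42 to -0.48 and -0.83 with a pseudocount of 0.1 FPKM and with none. When both clones were averaged, 0 members passed 2-fold, against 3 (CXCL1, CXCL2 and CCL20) with a pseudocount of 0.1 FPKM and 3 without a pseudocount, and 6 when either clone was left out, in opposite directions. The median difference of clone 1 from control was -3.93 with a pseudocount of 0.1 FPKM and -3.56 after scaling to TPM, and that of clone 2 from control was 2.34 after scaling to TPM and 2.02 with no filter. That of clone 2 from clone 1 was 5.85 with a pseudocount of 0.1 FPKM and 5.53 after scaling to TPM. Over all 11675 genes past the filter, the numbers lower in clone 1, higher in clone 2, higher in clone 2 than in clone 1, and lower in clone 1 and higher in clone 2 were 112, 155, 293 and 23. Of the same 11675 genes, they were 231, 292, 479 and 49 with a pseudocount of 0.1 FPKM, and 316, 557, 727 and 73 at 1.5-fold. Without a pseudocount they were 231, 306, 484 and 51 of 11598 genes. After scaling to TPM they were 464, 625, 808 and 54 of 15841 genes. That scaling raises the values, so the filter and the pseudocount weigh less there. A filter of 5 FPKM gave 41, 71, 146 and 19 of 6297 genes. Depth limits the values of clone 1 most, where CCL20 had 2 reads by the smallest whole numbers and CXCL8 on 12. No paired analysis was possible because the control library and the clones share fewer than 2 replicate numbers.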
